A study of Rattus norvegicus with 30 samples.

Results

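Kidneys of rats given a low dose of mercuric chloride (HgCl2) were compared with kidneys of rats given saline, both taken at 10 h. The comparison used the 5 libraries labelled as low dose, 0.25 mg/kg HgCl2, and the 5 labelled as saline vehicle, which make 10 of the 30 libraries of the series. The labels give every animal as a Sprague-Dawley rat, an outbred stock, and each library as a separate rat. The sources used here give no sex, age or route of dosing. Libraries from a high dose of 0.5 mg/kg at 10 h, and from vehicle, low dose and high dose animals at 34 h, were used only to follow transcripts found at 10 h. Whole frozen kidneys were powdered before RNA was extracted, and poly-A-enriched, stranded libraries were sequenced as read pairs.

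Inorganic mercury is taken up from the blood mainly by the cells of the proximal tubule, in part through organic anion transporters that carry it as a conjugate of thiol compounds. Inside the cell it binds to sulfhydryl groups of glutathione, metallothionein and other proteins. The proximal tubule is known as the main site of injury after mercuric chloride. The comparison asked which transcripts differed after the low dose, in how many of the 5 animals, and how unevenly the 5 animals responded.

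The estimated counts assigned to Ensembl transcripts added up to between 25958463 and 39095437 per library in the low dose group (median 31161281). In the vehicle group they ran from 27677773 to 32523189 (median 28320512). Low dose replicate 4, the library with the least depth, comes up in most results below. Of 40071 transcripts, 21112 passed the filter on low counts and were tested, and 12966 of these had a mean level of at least 5 CPM, the usual unit of counts scaled to library size and not divided by transcript length. None of the transcript identifiers could be paired with a gene of the reference table, so transcripts are given by identifier or by length, and neither gene groups nor the markers of the kidney's cell types were examined. Since whole kidneys were used, fewer cells of a type and less RNA per cell cannot be told apart. Library numbers in the labels form 1 unbroken block for the low dose group at 10 h and another for the vehicle group at 10 h, so numbering and dose cannot be told apart in this comparison either.

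No transcript passed the test of the low dose mean against the vehicle mean at 10 h. The quasi-likelihood test of edgeR called 0 of 21112 transcripts (0%) at an adjusted p under 0.05, and the smallest adjusted p was 0.551. Before adjustment, 1904 transcripts (9.02%) had a p under 0.05, of which 914 stood higher and 990 lower in the low dose group. DESeq2 called 76 transcripts on the same counts, 27 higher and 49 lower. The quality-weighted voom fit of limma called 0, with 3428 at an unadjusted p under 0.05, and limma on TPM values called 0, with 1831. Differences were mostly small: the median size of the log2 fold change was 0.13 over all transcripts tested and 0.09 over those with at least 5 CPM. Among the latter, 37 transcripts stood at least 2-fold higher and 103 at least 2-fold lower by the fitted means. Single animals gave another split. At this level, at least 3 low dose animals lay above the vehicle range, and 2-fold from its median, in 56 of 12966 transcripts. On the low side it was 10. With the roles exchanged, at least 3 vehicle animals lay above the low dose range in 13 transcripts and below it in 39. Vehicle replicate 2 alone stood at least 2-fold above the other 9 libraries in 103 transcripts of this level, which raises the vehicle mean there. How far these overlap with the 103 lower by the fitted means was not counted. Without low dose replicate 4, edgeR called 3 transcripts, and 3922 (18.6%) had an unadjusted p under 0.05. Without vehicle replicate 3 it called 1.

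To show single animals, 4 transcripts were followed in every library: among those of at least 5 CPM whose low dose and vehicle libraries did not overlap, the 2 higher and the 2 lower with the smallest unadjusted p. They were chosen in this contrast, so their 10 h values are a description. ENSRNOT00000047161, 4077 bases long, was at 71.4, 69.2, 72.9, 71.8 and 59.9 CPM in low dose replicates 1 to 5. In vehicle replicates 1 to 5 it was at 58.8, 48.2, 55.1, 53.5 and 55.0 CPM. Low dose replicate 5 lay just above the highest vehicle library, while the other 4 low dose animals lay close together and well clear of it, with a log2 fold change of 0.35 (SE 0.07). ENSRNOT00000090565, 3281 bases long, was at 12.1, 11.5, 15.2, 11.4 and 10.5 CPM after the low dose. The vehicle libraries held 8.53, 8.82, 7.97, 8.93 and 7.39 CPM. Replicate 3 was the highest of the low dose group, and the other 4 lay within a narrow band above all vehicle animals, with a log2 fold change of 0.55 (SE 0.11).

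ENSRNOT00000085092, a transcript of 887 bases, was lower in each low dose animal, at 10.0, 8.23, 10.6, 10.7 and 8.87 CPM. The vehicle animals had 12.6, 13.1, 13.2, 15.3 and 14.3 CPM. The low dose mean was 70.5% of the vehicle mean and no low dose animal reached the lowest vehicle animal. The log2 fold change was -0.50 (SE 0.09). ENSRNOT00000064700, 1931 bases long, is the only one of these 4 whose estimated counts were whole numbers in the libraries, that is, whose reads were not divided between transcripts. It was at 113, 107, 99.7, 130 and 121 CPM after the low dose, with replicate 4 highest. The vehicle animals had 156, 139, 158, 152 and 144 CPM, all above the highest low dose animal, with a log2 fold change of -0.39 (SE 0.07). For these 4 transcripts the adjusted p by edgeR was 0.551, and it stayed above 0.05 without any one library, while DESeq2 gave adjusted p-values of 0.00385, 0.0063, 0.00274 and 0.00156 in the order described.

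**Figure D1:**
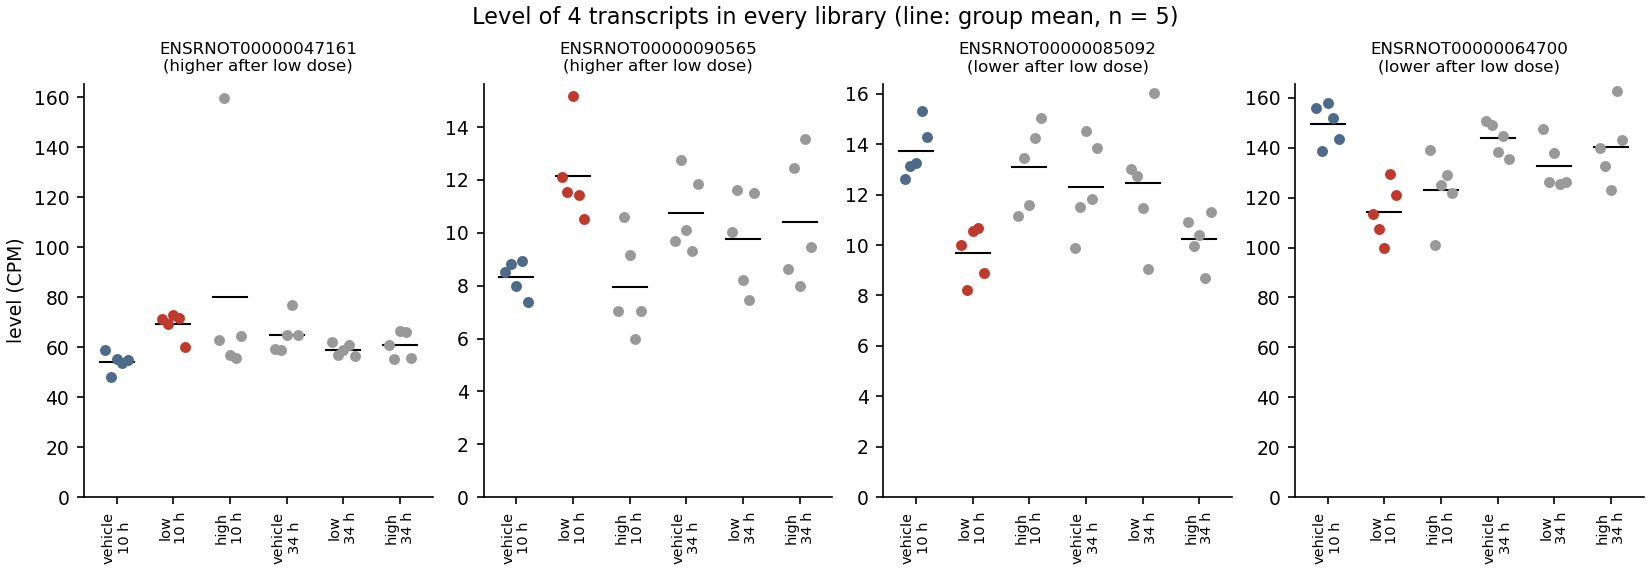
CPM (vertical axis, linear from 0) of 4 transcripts in every library of the 6 groups, with points for animals and a line at each group mean. The red low dose points at 10 h lie wholly on one side of the blue vehicle points at 10 h, and the 34 h low dose and vehicle points overlap in each panel.

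At 34 h, in libraries that had no part in choosing them, none of the 4 passed the test of low dose against vehicle. The log2 fold change of low dose against vehicle at 34 h was -0.14 for ENSRNOT00000047161 (adjusted p = 0.391, edgeR) and -0.14 for ENSRNOT00000090565 (adjusted p = 0.685, edgeR), both opposite in sign to 10 h. It was 0.01 for ENSRNOT00000085092 (adjusted p = 0.980, edgeR) and -0.12 for ENSRNOT00000064700 (adjusted p = 0.361, edgeR). The change of the difference from 10 h to 34 h had adjusted p-values of 0.519 to 0.627 by edgeR, so a change was not shown for any of the 4. In the plot of CPM by group, the high dose animals at 10 h averaged 80.0 ± 44.8 CPM (SD, n = 5) for ENSRNOT00000047161, with 1 animal at 159.8. For ENSRNOT00000064700 the high dose mean at 10 h was 123 ± 14.1 CPM (SD, n = 5), near the low dose mean of 114 ± 11.6. For ENSRNOT00000085092 it was 13.1 ± 1.68, near the vehicle mean of 13.7 ± 1.08. For ENSRNOT00000090565 it was 7.97 ± 1.88, below the vehicle mean of 8.33 ± 0.644 by less than either SD at n = 5 and not on the side of the low dose animals.

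Counting animals rather than means, few transcripts were beyond the vehicle range in every low dose animal, and many were beyond it in most. All 5 low dose libraries lay above all 5 vehicle libraries in 112 transcripts (0.531%), and below them in 147 (0.696%). On the TPM scale the split was 202 above and 84 below. Exactly 4 of the 5 low dose animals lay above the vehicle range in 1036 transcripts and below it in 961. With the roles exchanged, exactly 4 of 5 vehicle animals lay above the low dose range in 473 transcripts and below it in 476. At least 3 low dose animals lay beyond the vehicle range in 3039 transcripts on the high side and 2896 on the low side, against 1786 and 1684 with the roles exchanged. Low dose replicate 4 enters both kinds of count. It was the animal that did not shift in 1377 of the 1997 transcripts shifted in exactly 4 low dose animals. It is also part of the low dose range in the exchanged counts, so these are no baseline free of that animal, here and below.

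**Figure D2:**
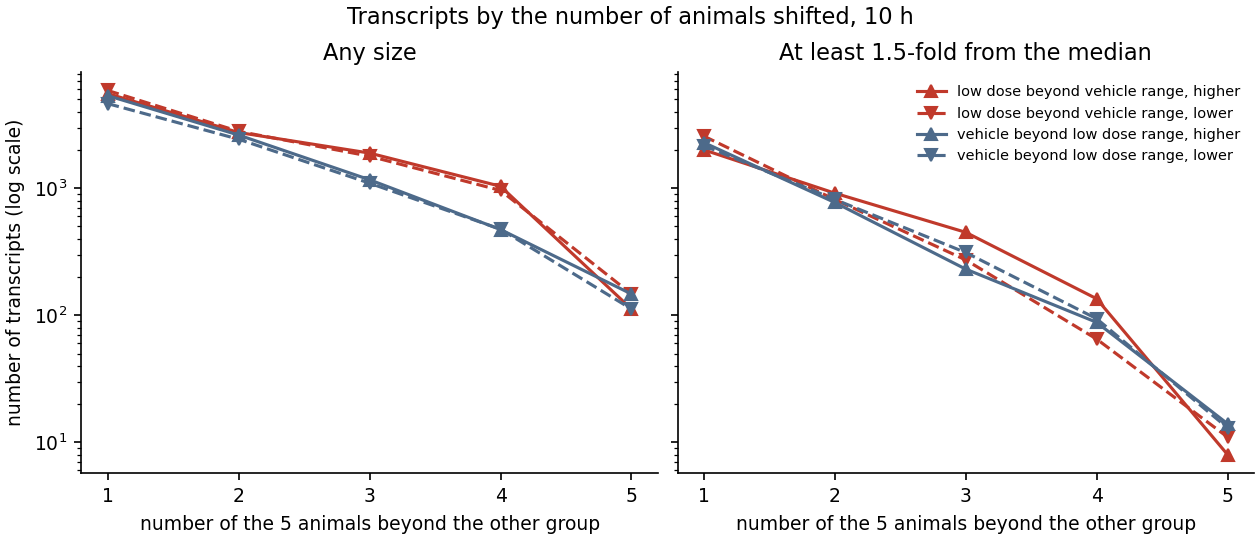
Number of transcripts (vertical axis, log scale) by the number of animals of 1 group that lay beyond the whole range of the other group, for shifts of any size and of at least 1.5-fold. At 3 and 4 animals the red low dose lines lie above the blue vehicle lines for shifts of any size, by 1997 against 949 at exactly 4 animals in both directions together. With the size limit, the low dose count at 3 and 4 animals is above the vehicle count on the high side and below it on the low side. Low dose replicate 4, often the animal that did not shift, is part of the low dose range behind the vehicle counts.

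How far the low dose and vehicle counts lay apart depended on the size and direction asked for. When the shift also had to be at least 1.5-fold from the vehicle median, 219 transcripts were shifted in at least 4 of 5 low dose animals, against 209 in at least 4 of 5 vehicle animals with the roles exchanged. The low dose set held 143 higher transcripts (0.677%) and 76 lower ones (0.360%), against 102 higher and 107 lower with the roles exchanged. At 1.2-fold the totals in at least 4 animals were 742 against 565, and at 2-fold 69 against 76. In at least 3 animals at 1.5-fold they were 942 against 752. Both were mostly made of low values: the median level over the 10 libraries was 0.976 CPM in the higher set and 1.01 CPM in the lower set, against 9.99 CPM over all transcripts tested. Of the higher set 25, and of the lower set 8, had a mean of at least 5 CPM. Whole-number counts in all 30 libraries were held by 26.6% of the higher and 35.5% of the lower set, against 39.1% of all tested. For most of both sets, some reads were thus divided between targets in at least 1 library. How much of each count was divided was not measured.

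The transcripts described next belong to these 2 sets and were chosen after their values were seen, for their CPM or the size of their shift. The higher transcript with the largest mean CPM, 5388 bases long, was at 112, 150, 111, 41.0 and 155 CPM in low dose replicates 1 to 5. The vehicle animals had 57.3, 64.2, 86.8, 75.5 and 64.7 CPM. Replicates 1, 2, 3 and 5 lay above every vehicle animal, and replicate 4 lay below every vehicle animal. A transcript of 1401 bases was at 108, 34.1, 80.0, 1.05 and 43.1 CPM after the low dose, while the vehicle animals lay between 2.51 and 12.9 CPM. Again replicate 4 lay below all vehicle animals, and the other 4 differed among themselves by more than 3-fold, around a log2 fold change of 3.22 (SE 0.93). A transcript of 1385 bases was at 42.2, 51.6, 52.9, 22.7 and 45.2 CPM, against 19.7 to 25.4 CPM in the vehicle group. Here replicate 4 had the level of a vehicle animal. With all 10 libraries edgeR gave a log2 fold change of 0.92 (adjusted p = 0.551). Without replicate 4 it gave 1.08 with an adjusted p of 0.0154. The library left out is the one that did not shift, in a transcript chosen for the shift of the other 4. That p is therefore a description and not support for a difference.

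A transcript of 2144 bases, with whole counts, showed another arrangement. It was at 16.1, 13.0, 12.6, 5.89 and 4.37 CPM after the low dose and at 2.70 to 4.54 CPM in the vehicle group. Replicates 1 to 3 stood far above the vehicle range, replicate 4 a little above it and replicate 5 within it. In the low dose libraries at 34 h its mean was 8.43 ± 2.50 CPM (SD, n = 5), against 4.67 ± 0.50 in the vehicle libraries. The log2 fold change at 34 h was 0.85 (adjusted p = 0.231, edgeR), and the 34 h ranges of 5.91 to 11.9 and 4.10 to 5.30 CPM did not overlap. The transcript of 1385 bases also had a log2 fold change of 0.53 at 34 h (adjusted p = 0.229, edgeR), with overlapping ranges of 22.9 to 35.6 CPM after the low dose and 19.3 to 24.9 CPM in the vehicle group.

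Of the lower transcripts, the one with the largest mean CPM, 1844 bases long, was at 30.8, 29.6, 25.2, 46.0 and 23.0 CPM after the low dose. Vehicle replicates 1 to 5 had 141, 80.5, 40.3, 90.4 and 70.8 CPM. Replicate 4 was the highest low dose animal, above the lowest vehicle animal, and the vehicle animals themselves ranged more than 3-fold. The log2 fold change was -1.45 (SE 0.31). At 34 h the means were 29.5 ± 14.3 CPM after the low dose and 25.2 ± 18.5 CPM after vehicle (SD, n = 5 each), both close to the 10 h low dose mean of 30.9 CPM. A transcript of 1192 bases with whole counts was at 3.43, 3.88, 3.37, 5.62 and 6.54 CPM after the low dose. The vehicle animals lay between 8.54 and 16.2 CPM, above every low dose animal. A transcript of 3302 bases was at 5.27, 6.71, 5.69, 0.736 and 7.92 CPM, against 10.6 to 16.1 CPM in the vehicle group, so that all low dose animals stood below all vehicle animals and replicate 4 was here the lowest.

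One animal accounted for most of the transcripts that shifted in 4 animals and not in 5. Of the 1036 transcripts above the vehicle range in exactly 4 low dose animals, replicate 4 was the animal that did not shift in 685, or 66.1%. Of the 961 below the vehicle range, it was so in 692, or 72.0%. In both directions together, replicate 4 was the missing animal in 1377 of 1997 transcripts, and in 519 of these 1377 it lay beyond the vehicle range on the opposite side. Replicate 5 was the missing animal in 349, and replicates 1, 2 and 3 in 116, 78 and 77. With the roles exchanged, the missing vehicle animal was spread over all 5, from 164 to 225 of 949 transcripts each. In the smaller sets that also met the 1.5-fold limit, replicate 4 was the missing animal in 75 of the 143 higher and 23 of the 76 lower transcripts, and replicate 5 in 32 and 17.

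**Figure D3:**
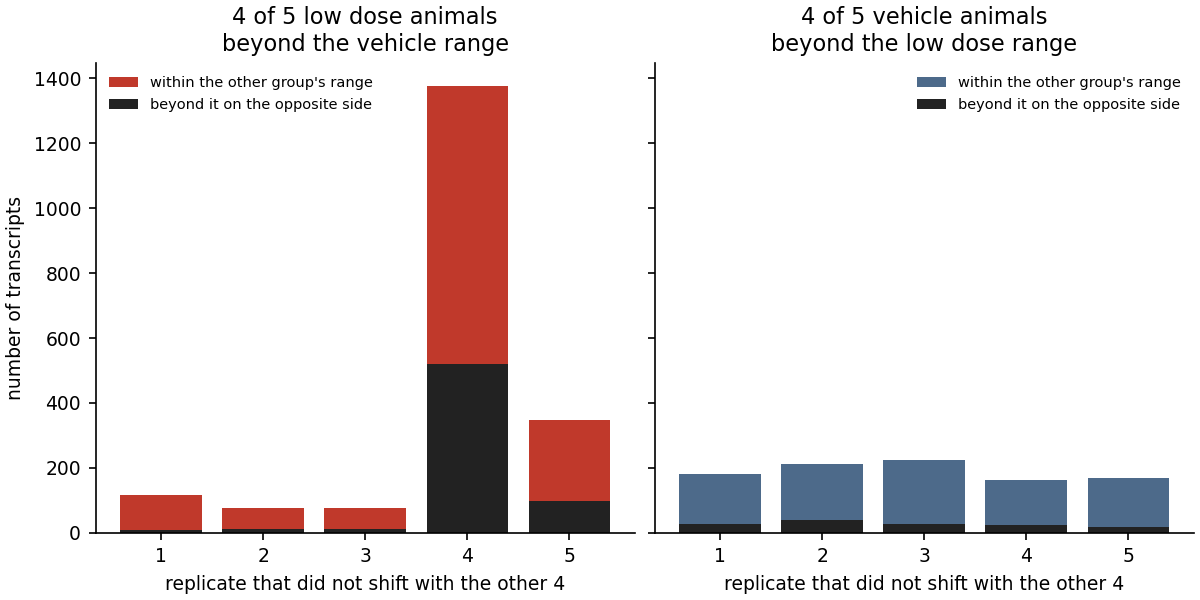
Number of transcripts (bars from 0) shifted in exactly 4 of 5 animals of a group, by the replicate that did not shift with the other 4, both directions together. The dark part of a bar counts transcripts in which that replicate lay beyond the other group on the opposite side. The bar of low dose replicate 4 reaches 1377, and the vehicle bars lie between 164 and 225.

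Among transcripts shifted in exactly 3 low dose animals, particular trios recurred. Of 1891 such transcripts on the high side, replicates 2, 3 and 5 were the trio in 603 and replicates 1, 2 and 3 in 478. Of 1788 on the low side, replicates 1, 2 and 3 were the trio in 579 and replicates 2, 3 and 5 in 383. Above the vehicle range, the count per low dose animal ran from 3746 (17.7% of transcripts tested) in replicate 1 to 4903 (23.2%) in replicate 3. In replicate 4 it was 3858 (18.3%). With the roles exchanged, single vehicle animals lay above the low dose range in 2891 (13.7%) to 3884 (18.4%). The counts of low dose replicates 1 and 4 fell within that span. What set replicate 4 apart was how often it was beyond the range alone. It was the only low dose animal above the vehicle range in 2055 transcripts and the only one below in 2262, against 653 to 1192 and 621 to 1273 for each of the other 4 animals.

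Distances between whole libraries gave the same arrangement. The distance was the median size of the log2 CPM difference over the 12966 transcripts of at least 5 CPM. Low dose replicates 1, 2 and 3 lay 0.12 to 0.13 apart. Low dose replicate 4 lay 0.19 to 0.24 from the other low dose animals, but 0.11 to 0.18 from the vehicle animals, nearest to vehicle replicate 1 at 0.113 and vehicle replicate 5 at 0.118. Low dose replicate 5 lay on average 0.167 from its own group and 0.162 from the vehicle group. Its own-group average includes 0.222 to replicate 4, and it lay 0.150, 0.131 and 0.165 from replicates 1, 2 and 3. Replicates 1, 2 and 3 lay on average nearer to their own group than to the vehicle group, by 0.00588, 0.0285 and 0.0281. Their own-group averages also include replicate 4, at 0.185, 0.235 and 0.225 from replicates 1, 2 and 3. Each of the vehicle animals was on average nearer to its own group, although vehicle replicates 1 and 5 had low dose replicate 4 as their nearest library.

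**Figure D4:**
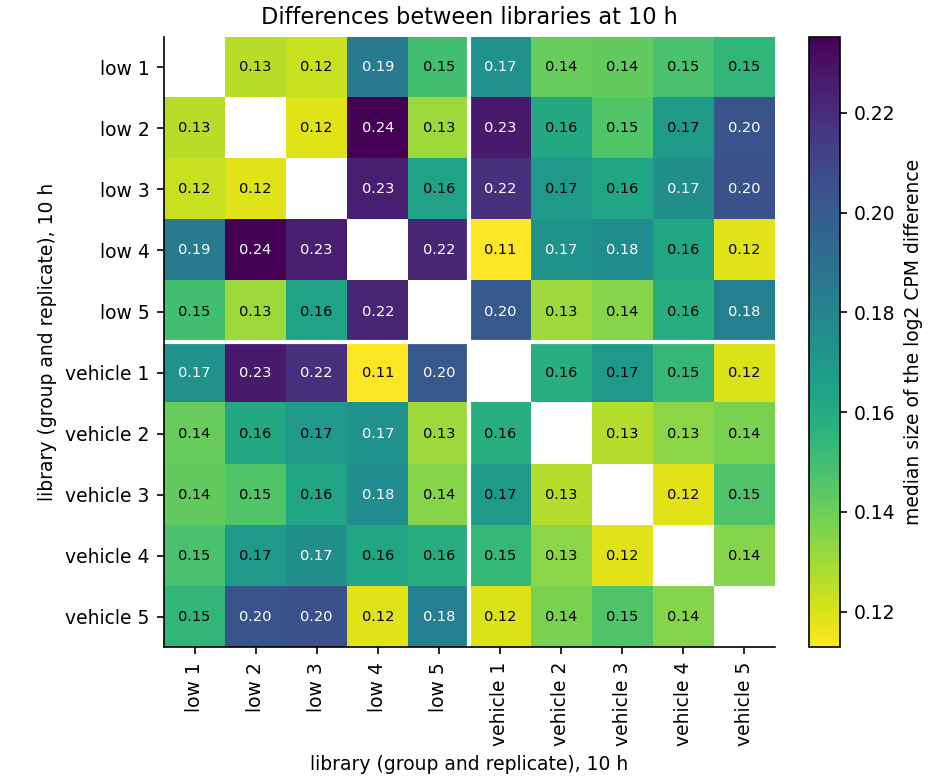
Distance between each pair of the 10 libraries at 10 h, as the median size of the log2 CPM difference over transcripts of at least 5 CPM, with libraries on both axes. Low dose replicate 4 has darker cells, larger distances, with the other low dose animals (0.19 to 0.24) than with vehicle replicates 1 and 5 (0.11 and 0.12).

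A trend with transcript length ran along with this arrangement. Over 6 length classes of transcripts of at least 5 CPM, the median deviation of a library from the mean of the 10 libraries was compared between the longest class, 4305 to 23724 bases, and the shortest, 49 to 1290 bases. The longest class less the shortest gave a log2 difference of -0.23 in low dose replicate 4, and of -0.21 and -0.12 in vehicle replicates 1 and 5. In low dose replicates 2 and 5 it stood higher, by 0.21 and 0.19, and in replicates 1 and 3 by 0.03 and 0.07. Vehicle replicates 2, 3 and 4 had differences of 0.02, 0.07 and -0.02. The 3 libraries with the lowest values for long transcripts are thus low dose replicate 4 and the 2 vehicle libraries nearest to it. After each library was centred within length classes, replicate 4 lay 0.171 to 0.209 from the other low dose animals and 0.113 to 0.157 from the vehicle animals. It was then the missing animal in 64.6% of transcripts shifted in exactly 4, against 69.0% before. The test of means after that centring called 0 transcripts with edgeR, with 2034 at an unadjusted p under 0.05. RNA integrity of single libraries was not analysed here, and its part in the trend was not tested.

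**Figure D5:**
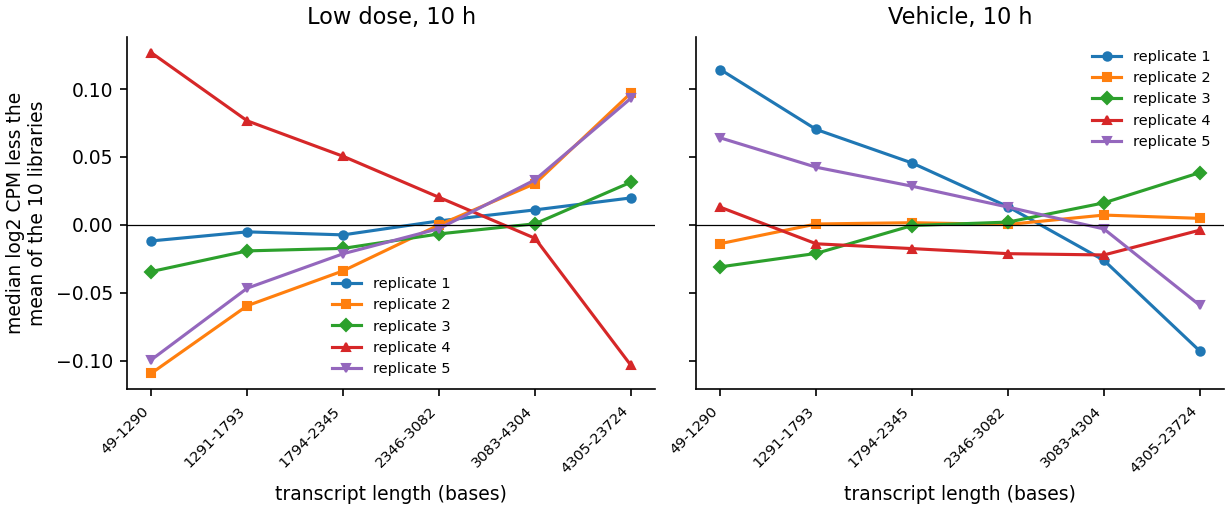
Median deviation of log2 CPM from the mean of the 10 libraries (vertical axis) by transcript length in bases (6 classes with near-equal numbers of transcripts), 1 line per library. The lines of low dose replicate 4 and of vehicle replicates 1 and 5 slope down towards long transcripts, and those of low dose replicates 2 and 5 slope up.

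The spread within the low dose group was wider than in the vehicle group for the typical transcript, but not for the transcripts that varied most. Over the 12966 transcripts of at least 5 CPM, the median SD of log2 CPM was 0.16 in the low dose group and 0.13 in the vehicle group. The highest and the lowest animal differed by at least 2-fold in 1123 transcripts (8.66%) of the low dose group and 787 (6.07%) of the vehicle group. They differed by at least 4-fold in 235 and 262. Replicate 4 was the animal farthest from the low dose median in 5585 transcripts (43.1%), while in the vehicle group each animal was farthest in 17.0% to 25.7%. A single value per library was the root mean square log2 distance to the mean of the other 4 libraries of its group. Over all 21112 transcripts tested, it averaged 0.822 ± 0.078 in the low dose group and 0.879 ± 0.064 in the vehicle group (SD, n = 5 each). The difference did not pass a two-sided exact permutation test (p = 0.262). Each library's value is measured against the other 4 of its group, so the same libraries enter all 5 values. The test treats these values as separate, so this p and the later ones on such distances are a rough guide only. Over transcripts of at least 5 CPM the averages were 0.366 ± 0.076 and 0.439 ± 0.118 (SD, n = 5 each). That difference, -0.0729, did not pass either (exact permutation p = 0.333). Over all transcripts tested, the farthest animals were low dose replicate 4 at 0.951 and vehicle replicate 2 at 0.990. Leaving out the farthest library of a group takes its large distance out of that group's mean. The remaining libraries are then compared with the mean of fewer others, which can raise their distances. Without low dose replicate 5, which was not the farthest, the difference was -0.0288 (exact permutation p = 0.571). Differences after an omission are thus not like for like with those of the full groups. Without low dose replicate 4 the difference was -0.0755 (exact permutation p = 0.0476), and without vehicle replicate 2 it was -0.0465 (exact permutation p = 0.286). The first was the only one of the 10 omissions with a p under 0.05, and that p is likewise a rough guide only.

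Some transcripts stood out in a single animal, at least 2-fold beyond the other 9 libraries. Low dose replicate 4 was alone on the low side in 180 transcripts and alone on the high side in 26. The other low dose animals were alone in 63 to 124 on the low side and 10 to 46 on the high side. The median level of the 180 transcripts of replicate 4 was 0.637 CPM, and 19 of them had a mean of at least 5 CPM. Among transcripts of at least 5 CPM, low-side counts of the other libraries ran from 3 in low dose replicate 2 to 29 in vehicle replicate 3. The largest count on the high side, 245, was that of vehicle replicate 2, and 103 of these transcripts had a mean of at least 5 CPM. One of them, 799 bases long and chosen after its values were seen, was at 129 CPM in vehicle replicate 2 and at 1.02 CPM or less in the other 9 animals. Counts above 100 in 1 direction came from animals of both groups, namely low dose replicates 4 and 5 and vehicle replicates 1, 2, 3 and 5, and all but that of vehicle replicate 2 were of transcripts standing low.

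The 2 sets shifted at least 1.5-fold in most low dose animals were then read at 34 h, where the animals had no part in choosing them. Of the 143 transcripts of the higher set, 100 (69.9%) also stood higher after the low dose at 34 h, with a median log2 fold change of 0.23, while 48.5% of all transcripts tested stood higher there. Of the 76 transcripts of the lower set, 45 (59.2%) stood lower at 34 h with a median of -0.05, against 51.4% of all tested. edgeR called 7 transcripts of 21112 at 34 h (0.0332%), and 0 of these were in either set. At an unadjusted p under 0.05, 21 transcripts of the higher set stood higher and 1 lower, and 3 of the lower set stood higher and 2 lower. Over all 21112 transcripts tested, 1457 stood higher and 1560 lower at that p. Read against the vehicle median at 10 h, the median of the higher set was 0.61 to 1.22 in log2 units in the low dose libraries at 10 h, the lowest being replicate 4, and 0.29 to 0.54 in the low dose libraries at 34 h. In the vehicle libraries at 34 h it was 0 to 0.38, and in the high dose libraries it ran from 0.19 to 0.86 (10 h) and from 0.25 to 0.60 (34 h). The median of the lower set was -0.60 to -0.45 in the low dose libraries and -0.59 to -0.35 in the vehicle libraries at 34 h. It was -0.90 to -0.13 in the high dose libraries at 10 h and -0.84 to -0.37 at 34 h. The vehicle libraries of 10 h helped to choose both sets and are also the baseline of these values, so the sign of a group's median against them shows nothing about that group.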

How the data were processed

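Per the submitters' processing notes, kallisto 0.42.2 and the rat build Rnor_6.0 were used, with no other step named there. Each deposited file held 65166 targets, 40071 with an Ensembl transcript identifier and 25095 genomic intervals, with estimated counts and TPM as the authors deposited them. The intervals took 6.34% to 8.86% of the estimated counts per library and were left out. Rounding made whole numbers of the estimated counts. Transcripts passing edgeR's filterByExpr over all 30 libraries by group were kept, scaled by TMM and tested with edgeR 4.0.16 (quasi-likelihood, R 4.3.3) on the 10 libraries alone, with Benjamini-Hochberg adjustment over 21112 transcripts. Levels are CPM after TMM over all 30 libraries, and their log2 used a prior count of 0.5. DESeq2 1.42.0, limma 3.58.1 (voom, or log2 of TPM plus 1), other filters and the omission of each library were alternatives. The edgeR step was tested on simulated counts in which each planted change was the same in all low dose libraries. No animal was set apart in them, so they do not bear on the number of calls in these data. Exact permutation tests used scipy 1.17.1.

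An animal was counted as shifted when its log2 CPM lay beyond all 5 libraries of the other group, and, where stated, at least 1.5-fold from their median. Named transcripts had a mean of at least 5 CPM and groups that did not overlap, and were the 2 per direction with the smallest edgeR p. The members and rules were chosen with earlier results of these data known. No 2 libraries of a group agreed within sampling noise: the lowest chi-square per degree of freedom within a group was 13.5. Of the transcripts tested, 8256 had whole estimated counts (within 1e-06), and 204 had the same level as another in all 30 libraries. None of the transcripts matched the 47357 genes of the reference table.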

Additional observations from a re-analysis of the deposited data

Results flagged for a closer look

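Among 52 groups of 5 samples examined for a sample far from the other 4, 6 samples were found. The usual rate of about 1 in 20 groups assumes independent values. Some groups here are counts that share a total, or CPM of transcripts chosen in these libraries. The 6 can therefore not be set against that rate. Low dose replicate 4 was far from the other low dose animals in how often it was the one not shifted when the other 4 were, with 685 transcripts on the high side and 692 on the low side. Vehicle replicate 4 had 8.86% of its estimated counts on genomic intervals. Vehicle replicate 2 had a root mean square log2 distance of 0.990 to its group. ENSRNOT00000047161 was at 159.8 CPM in high dose replicate 2 at 10 h, far above the other 4 high dose animals, and at 59.9 CPM in low dose replicate 5 at 10 h, below the other 4 low dose animals.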

How the results depend on the processing

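The count of 0 transcripts called by edgeR at 10 h stayed at 0 under the other scalings, filters and limma fits, became 76 with DESeq2 (2253 transcripts then had no adjusted p) and ranged from 0 to 3 without single libraries. The 219 transcripts shifted in at least 4 low dose animals became 59 on log2(TPM + 1), 33 at 5 CPM or more, 65 with whole counts only, 742 and 69 at 1.2-fold and 2-fold, and 942 and 19 when 3 or all 5 animals were asked for. Without single libraries the count ranged from 282 to 711. Where a low dose library was left out, 3 of the remaining 4 animals were asked for, a looser rule, which gave 384 to 711 with the highest without replicate 4. Without a vehicle library, 4 of 5 low dose animals were still asked for, which gave 282 to 363. The 259 transcripts whose groups did not overlap became 169 at 5 CPM or more and 111 with whole counts only, and ranged from 336 to 1636 without single libraries, where fewer libraries have to be apart; the highest was without low dose replicate 4 and the next, 608, without low dose replicate 5. Fewer transcripts or animals enter under these limits, which bears on the counts directly. The mean distance to the own group, low dose less vehicle, turned to 0.00296 (exact permutation p = 0.976) with only transcripts of at least 5 CPM in 5 libraries. With a mean of at least 5 CPM it was -0.0729 (exact permutation p = 0.333). Both p-values are a rough guide only, since the same libraries enter every value of a group. The cause of the turn in sign was not tested. Over all transcripts tested the mean distance, low dose less vehicle, ranged from -0.104 to -0.00305 without single libraries. Without low dose replicate 4 it was -0.0755. The 1559 transcripts in which 1 library stood beyond the other 9 became 753 at 4-fold, 391 on log2(TPM + 1) and 319 with whole counts only. Of transcripts shifted in exactly 4 low dose animals, replicate 4 was missing in 69.0%, and in 75.3% at 5 CPM or more, 59.6% on log2(TPM + 1), 73.0% with whole counts only and 64.6% after centring by length. These last settings, and the others that concern replicate 4 and length, were chosen after seeing the data. The 34 h log2 fold change of ENSRNOT00000085092 ranged from -0.0965 to 0.107 without single libraries, so its sign is not settled. No paired analysis was made, since each library is a separate rat and no match between rats of different groups was available here. Estimated counts divide reads between targets, which limits the precision of most transcripts tested beyond what depth gives.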

Other observations

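Of the 76 transcripts that DESeq2 called and edgeR did not, the low dose and vehicle groups did not overlap in 50, against 259 of all 21112 transcripts tested, and 22 belonged to the sets shifted at least 1.5-fold in at least 4 low dose animals, against 219 of all tested. The calls and these counts are read from the same 10 libraries and are not independent. Of the 76, 56 had a mean of at least 5 CPM and 28 had whole counts, against 61.4% and 39.1% of all tested. The smallest edgeR adjusted p among them was 0.551.

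Some transcripts were high in a few animals of more than 1 group, and this was not limited to dosed groups. One of 1140 bases, chosen after its values were seen, was at 322 CPM in vehicle replicate 4 at 10 h. In the high dose libraries at 34 h it reached 1760 CPM. A transcript of 1924 bases, chosen after its values were seen, was at 286, 579, 134, 11.5 and 4.85 CPM in low dose replicates 1 to 5 at 10 h, and at 4.47 to 44.7 CPM in the vehicle group. Replicates 1 to 3 lay above every vehicle animal and replicates 4 and 5 did not. At 34 h the low dose libraries ranged from 13.0 to 232 CPM and the vehicle libraries from 4.64 to 10.8 CPM, and the log2 fold change was 3.30 (SE 0.85, adjusted p = 0.239, edgeR). Its high dose mean was 111 ± 181 CPM at 10 h and 95.1 ± 68.4 CPM at 34 h (SD, n = 5 each). A transcript of 2101 bases was at 217 CPM in low dose replicate 3 at 10 h and at 9.26 to 63.9 CPM in the other 4 low dose animals, against 13.0 to 17.7 CPM in the vehicle group. In the high dose libraries at 10 h it ranged from 13.6 to 2431 CPM, with a median of 19.3 CPM, so that a single animal held most of that group's total.

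In limma's voom fit, the weight estimated from the data for each library was 0.415 for low dose replicate 4 and 0.803 for low dose replicate 5, and 0.956 to 1.34 for the other 8 libraries.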
